A study of Mus musculus with 4 samples.

Results

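Clusters of distal open regions are stretches of chromatin in which many accessible elements lie close together away from gene starts. They were studied in 1 group: primary T-helper 17 (Th17) cells of the mouse strain C57BL/6NJ, profiled by ATAC-seq, in which a transposase cuts accessible DNA. The group has 4 biological replicates, all with the same donor identifier, so the spread between them may be partly technical. No treatment, genotype or second cell type is given, the sex was not collected, the age is unknown, and the peak names carry the unexplained tokens 72hrs and ASTARR.insert. The lists hold no read counts, so depth is unknown and no counting intervals can be given.

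The members were chosen by the presence and position of peaks in the same 4 lists. Overlapping rows on chromosomes 1 to 19 and X were merged into 100991 regions, of which 68680 had a row from all 4 replicates. The midpoints of 53266 of these lay over 1 kb from every protein-coding transcription start site (TSS), and these are called shared distal regions. Shared distal regions no farther apart than the default stitching distance of super-enhancer callers, between 12 and 13 kb, were stitched together, which gave 26190 clusters, 14631 of them (55.9%) a single region. The 586 clusters of 8 or more regions are the members. They are 2.24% of the stitched clusters and hold 6334 of the shared distal regions (11.9%); the other 46932 are the set they are compared with.

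Enhancers are DNA elements, usually accessible, that bind transcription factors and raise transcription of genes on the same chromosome, at times over long distances. Genes that define a cell type often have many enhancers side by side, and stretches with very high levels of activating marks have been called super-enhancers. That name rests on histone marks, Mediator or transcription factor binding, none of which was measured here, so the members are called clusters only. Th17 cells are CD4 T cells that secrete interleukin 17 in response to extracellular bacteria and fungi; they form under interleukin 6 and TGF-beta through transcription factors that include STAT3, BATF and IRF4.

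The following sequences show what a strong element of a large cluster looks like. Each reaches 75 bp to either side of the summit of the region with the highest mean signal percentile, from the 6 clusters with the most regions and from 4 further clusters at Th17 genes. Ikzf1 and Tnfrsf8 tie for the sixth place with 25 regions each, and Ikzf1, with more regions per 10 kb (1.74 against 1.62), was taken. They are read from the plus strand of the GRCm38.p6 (mm10) assembly of NCBI RefSeq. Capitals mark matches, on either strand, to strings bound by AP-1 (TGANTCA), RUNX (TGTGGTT), ETS (AGGAAGT), STAT (TTCNNNGAA) and ROR (TAGGTCA) factors and by CTCF. The AP-1 and STAT strings are the same on both strands, and none of these strings contains another.
Bach2: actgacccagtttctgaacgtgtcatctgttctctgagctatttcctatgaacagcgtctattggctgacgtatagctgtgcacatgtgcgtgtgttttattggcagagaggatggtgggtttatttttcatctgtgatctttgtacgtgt
Prkch: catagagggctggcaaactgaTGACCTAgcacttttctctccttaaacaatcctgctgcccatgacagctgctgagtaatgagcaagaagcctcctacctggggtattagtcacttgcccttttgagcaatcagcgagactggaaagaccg
Tomm20: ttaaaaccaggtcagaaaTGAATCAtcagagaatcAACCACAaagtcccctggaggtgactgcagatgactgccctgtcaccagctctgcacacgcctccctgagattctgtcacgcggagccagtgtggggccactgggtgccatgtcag
Exoc2: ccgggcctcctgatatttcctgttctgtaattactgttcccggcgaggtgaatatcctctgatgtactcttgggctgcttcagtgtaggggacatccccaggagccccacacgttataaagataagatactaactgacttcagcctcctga
Il21: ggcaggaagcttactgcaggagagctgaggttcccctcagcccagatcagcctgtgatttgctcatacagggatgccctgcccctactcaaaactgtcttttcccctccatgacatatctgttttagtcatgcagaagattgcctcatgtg
Ikzf1: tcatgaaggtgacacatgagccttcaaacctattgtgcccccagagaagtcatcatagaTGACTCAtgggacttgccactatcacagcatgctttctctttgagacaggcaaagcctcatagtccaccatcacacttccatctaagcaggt
Rora: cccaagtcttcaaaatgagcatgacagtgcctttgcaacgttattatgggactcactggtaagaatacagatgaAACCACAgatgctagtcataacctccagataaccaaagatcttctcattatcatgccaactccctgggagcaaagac
Il17f: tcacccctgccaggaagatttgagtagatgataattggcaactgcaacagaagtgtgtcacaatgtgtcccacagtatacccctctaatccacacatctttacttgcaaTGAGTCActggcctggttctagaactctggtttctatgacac
Ahr cluster 2: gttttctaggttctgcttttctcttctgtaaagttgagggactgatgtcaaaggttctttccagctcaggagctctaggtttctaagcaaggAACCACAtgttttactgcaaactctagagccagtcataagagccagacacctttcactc
Ahr cluster 1: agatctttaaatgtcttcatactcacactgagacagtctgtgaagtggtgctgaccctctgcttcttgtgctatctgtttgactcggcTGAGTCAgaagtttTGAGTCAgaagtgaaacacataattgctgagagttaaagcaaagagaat

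The sequence of the Bach2 cluster lies at chr4:32313869-32314019, that of the Prkch cluster at chr12:73755779-73755929 and that of the Tomm20 cluster at chr8:126867719-126867869. Those of the Exoc2, Il21 and Ikzf1 clusters lie at chr13:30777814-30777964, chr3:37161170-37161320 and chr11:11646488-11646638. Those of the Rora and Il17f clusters lie at chr9:69065973-69066123 and chr1:20714068-20714218. Those of Ahr clusters 2 and 1 lie at chr12:35641105-35641255 and chr12:35553215-35553365. A pair of AP-1 strings stands close together in Ahr cluster 1, and 1 each in the Tomm20, Ikzf1 and Il17f sequences. The RUNX string is present in the Tomm20, Rora and Ahr cluster 2 sequences and the ROR string in that of Prkch. The Bach2, Exoc2 and Il21 sequences hold none of the strings in this window. Within 50 bp of the summit, the AP-1 string was found in 25.9% of all shared distal regions, the RUNX string in 6.01%, the ETS string in 5.82%, the CTCF string in 6.00%, the STAT string in 3.88% and the ROR string in 1.48%.

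The number of regions per cluster fell off smoothly. The median member had 10 regions and the largest 44; 159 clusters had 12 or more, 53 had 16 or more and 19 had 20 or more. Just inside the threshold lay 161 clusters of 8 regions, with a median span of 45.1 kb and a median signal percentile of 41.6 ± 0.442 (SD, n = 4), and just outside 257 clusters of 7, with 39.3 kb and 42.5 ± 0.407. Spans ran between 23.1 and 250.3 kb with a median of 57.4 kb, at a median of 1.76 regions per 10 kb. The spans together cover 35.9 Mb, 1.36% of the chromosomes used, and hold 8.68% ± 0.095 (SD, n = 4) of each replicate's rows. The number of members follows the settings: it was 18 with stitching at 5 kb, 1576 at 25 kb and 32 when each list was limited to its strongest 50000 rows, and it lay between 642 and 649 when 1 replicate was left out. The median gap between neighbouring regions was 4.83 kb in the members and 5.36 kb in clusters of 2 to 7 regions.

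**Figure D1:**
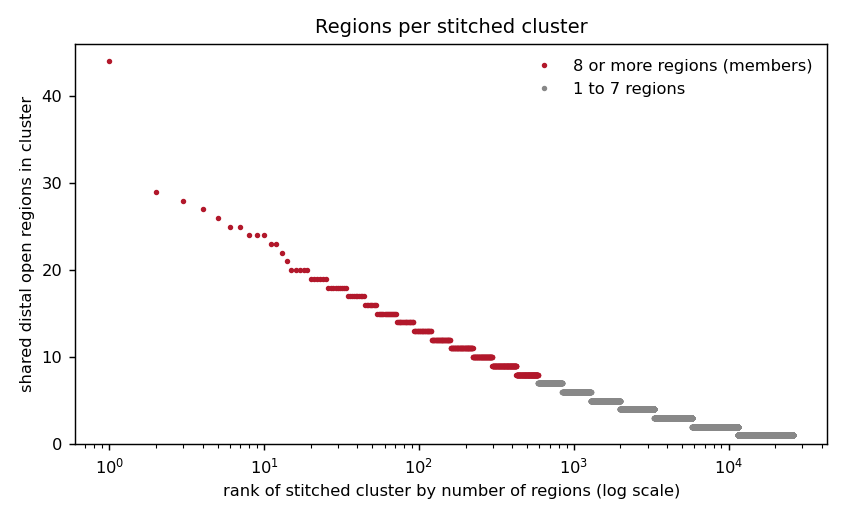
Number of shared distal open regions in each stitched cluster against its rank (log scale). Each point is 1 of 26190 clusters; the 586 members, with 8 or more regions, are red, and the largest has 44.

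The cluster with the most regions lay in Bach2, which encodes a transcriptional repressor that restrains effector differentiation of T cells. Its 44 regions span 250.3 kb at chr4:32242958-32493262, within the gene. Their summed signal, the deposited enrichment over background added over the regions, was 228.2, 233.6, 214.6 and 219.1 in replicates 1 to 4. It was the highest sum of any cluster in mean over replicates (224 ± 8.58, SD, n = 4), yet no single region stood out. The strongest held 4.69% of the sum, the lowest such share of all members, in the cluster with the most regions to share it. The regions' median percentile was 22.1 ± 2.52 by signal and 70.3 ± 1.74 by -log10 q.

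Next by number of regions came a cluster of 29 in Prkch (chr12:73593057-73756323), the gene of protein kinase C eta. Its summed signal was 183.2, 182.8, 167.2 and 172.2 in the 4 replicates. A cluster of 28 overlapped Tomm20 (chr8:126803727-126937069), which encodes a receptor for protein import into mitochondria. Its midpoint lay 75442 bp from the Tomm20 TSS. There the sums were 184.5, 187.1, 171.3 and 176.6. In both clusters replicates 3 and 4 were the lower pair, as in most sums given here; the deposited signal is not scaled between lists.

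A cluster of 27 regions covered Irf4, the transcription factor gene required for Th17 differentiation, and more of its neighbour Exoc2, an exocyst subunit gene, by which it is called (chr13:30719429-30865874). Its sums were 172.3, 179.5, 161.5 and 168.3. The Il21 cluster, 26 regions at chr3:37152090-37303088, surrounds the gene of interleukin 21, a cytokine that Th17 cells make and respond to. Its sums were 156.3, 157.3, 147.3 and 151.4, and the strongest of its regions lay nearer to Il2, 35102 bp from that gene's TSS.

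Ikzf1, the gene of the lymphoid transcription factor Ikaros, had 25 regions (chr11:11645775-11789154) with a mean sum of 124 ± 5.64 (SD, n = 4). Another 25 regions lay over Tnfrsf8 and Tnfrsf1b (chr4:145200129-145354262), which encode CD30 and a TNF receptor, with a mean sum of 164 ± 4.15. Clusters of 24 regions each lay over Clec16a and Socs1 (chr16:10638704-10782725), the second encoding an inhibitor of JAK kinases, over Gm20696 and Foxp1 (chr6:99302064-99453237), the second a forkhead factor that keeps T cells quiescent, and in the kinase gene Map4k4 (chr1:39895211-40002575). Their mean sums were 151.3 ± 5.94, 173 ± 7.09 and 113 ± 3.94. Of these 10 clusters, Ikzf1 and Map4k4 were not among the 10 highest by summed signal. In their place stood the tetraspanin gene Tspan2 (chr3:102648770-102757377, 20 regions, 152 ± 8.53) and a cluster over Slc5a10 and Grap (chr11:61593054-61715366, 21 regions, 151.04 ± 6.64), the second an adaptor of lymphocyte signalling.

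Summed signal and number of regions ranked the clusters partly alike. Spearman's rho across the 586 members was 0.714, a description in which both measures count the same regions. The replicates ordered the members by summed signal with a rho between 0.985 and 0.992 over the 6 pairs. Of the 586 clusters with the highest summed signal among all stitched clusters, 444 were members (75.8%), and the other 142 had 4 or more regions. A further reading took clusters past the point where the ranked curve of summed signal reaches a slope of 1, as super-enhancer callers do. That left 1876 clusters, of which 577 were members: 98.5% of the members, and 30.8% of the 1876. The 75.8% and the 98.5% are partly fixed in advance, since the sum adds over the same regions that the rule counts.

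Member regions had lower signal than the other shared distal regions but higher -log10 q. The rule used the presence and position of peaks and not their strength, although presence itself depends on the values the peak caller gave. Ranked among the shared distal regions of the same replicate, member regions had a median signal percentile of 39.5, 39.1, 38.8 and 37.9 in replicates 1 to 4, and the other regions 51.4, 51.5, 51.5 and 51.5. The difference was -12.7 ± 0.750 (SD, n = 4), with no overlap between the replicate medians of the 2 sets. By -log10 q, the median percentile was 57.0, 56.5, 56.8 and 56.3 in member regions and 49.1, 49.1, 49.2 and 49.3 in the others, a difference of 7.48 ± 0.392. Both differences were many times the spread between replicates. An exact two-sided sign-flip permutation test over 4 replicates cannot give a p under 0.13 (2 of 16 sign assignments), the value reached here and by every replicate-wise difference below that has 1 sign in all 4.

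In deposited units, the median signal was 5.75 ± 0.205 in member regions and 6.96 ± 0.245 in the others, and the median -log10 q 46.5 ± 1.20 and 36.8 ± 0.955 (SD, n = 4 each). Elements very strong by signal were less frequent in clusters: 0.335% ± 0.035 of member regions and 1.09% ± 0.005 of the others were in the top 1%. No such share was taken by -log10 q, whose median was higher in member regions. The lowest 10% by signal held 17.4% ± 0.225 of member regions and 8.97% ± 0.140 of the others. Median width was 702 ± 24.0 bp in member regions and 652.5 ± 23.2 bp in the others. Mean GC content within 100 bp of the summit was 48.3% ± 0.037 and 47.6% ± 0.018, and windows with a CpG made up 87.5% ± 0.220 and 84.7% ± 0.060. The repeat-masked share was 11.6% ± 0.080 in member regions and 12.4% ± 0.016 in the others. The part of width, GC content and repeats in the difference of strength was not tested.

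The opposite course of both measures ran through all cluster sizes. The median signal percentile was 57.1 ± 0.359 for single regions, 50.4 ± 0.076 in clusters of 2 to 3, 47.0 ± 0.133 in clusters of 4 to 7 and 38.8 ± 0.692 in the members (SD, n = 4 each). The median percentile of -log10 q was 46.7 ± 0.476, 48.5 ± 0.159, 52.7 ± 0.167 and 56.6 ± 0.310 in the same order. The replicate medians of neighbouring classes did not overlap on either scale, but the regions themselves overlapped widely. The lower and upper quartiles of signal percentile were 31.7 and 81.4 for single regions and 15.9 and 65.3 in the members. With stitching at 5 kb, which leaves 18 clusters, the -log10 q difference turned to -6.81 ± 0.539 while the signal difference was -39.1 ± 0.825. The signal difference was -6.99 ± 0.436 with stitching at 25 kb, -8.23 ± 0.377 for presence in at least 2 replicates and -3.95 ± 1.04 when each list was limited to its strongest 50000 rows.

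**Figure D2:**
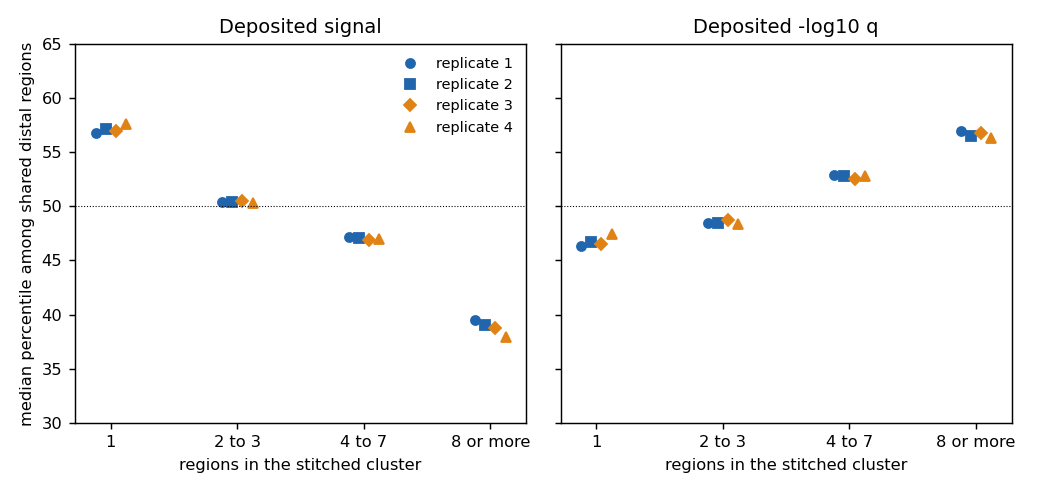
Median percentile of deposited signal (left) and of deposited -log10 q (right) among shared distal regions, by number of regions in the stitched cluster. Each point is 1 of 4 replicates, blue for library tag KS134 and orange for KS136; the members, at the right of each panel, lie near 39 by signal and near 57 by -log10 q.

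Most of the variation in strength lay within clusters. The SD of signal percentile between the regions of a cluster had a median of 26.9, against an SD of 11.2 between cluster means. Of the variance among member regions, 15.9% lay between clusters. Means of regions grouped at random differ too, and the share this alone would give was not measured. The strongest region of a cluster held a median of 18.7% of the summed signal (4.69% to 36.0%) and stood at a median percentile of 87.0, whereas the weakest stood at 4.96. In 228 clusters at least 1 region was above the 90th percentile, and in 417 at least 1 was below the 10th. In 156 both held. Groups of regions drawn at random also have strong and weak extremes. The extremes and counts that random groups of the same sizes would give were not measured, so these values only describe the clusters. Of the 586 clusters, 158 had a median signal percentile over 50, 381 a median -log10 q percentile over 50, and 238 a low signal with a high -log10 q by these limits.

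The Ets1 gene, which encodes a founding ETS factor of lymphocytes, had the cluster with the highest median signal percentile, the third of its 3 clusters. Its 8 regions lie at chr9:32980467-33038269, their midpoint 312984 bp from the Ets1 TSS, with a median percentile of 81.0, 81.6, 79.4 and 82.2 in replicates 1 to 4. The other high clusters were those of Dip2c (chr13:9284166-9331204, 77.7 ± 4.26), Atg10, an autophagy gene (chr13:91134239-91206711, 77.0 ± 2.11), Spag9, which encodes a scaffold of JNK signalling (chr11:94113291-94170246, 76.8 ± 2.33), and Snx29, a sorting nexin gene (chr16:11417922-11476210, 75.9 ± 2.26). The last 4 means differ by less than the SD of each.

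Clusters at the T-cell genes Il2ra and Satb1 were among those with the lowest signal percentiles. The Il2ra cluster, 22 regions at chr2:11616119-11697893 over the gene of the interleukin 2 receptor alpha chain, had the lowest median signal percentile, with 1.48, 1.75, 2.22 and 1.38 in the 4 replicates. Of its 22 regions 14 were below the 10th percentile, although its first region, at chr2:11616119-11617519, had signals of 11.7, 12.2, 11.5 and 11.5. That region was at percentile 83.4 ± 0.860 by signal and at 99.9 by -log10 q. Pabpc1, a poly(A)-binding protein gene (chr15:36562552-36616448, 9 regions), followed at 3.10 ± 0.398. Satb1, a chromatin organiser of T cells (chr17:51779564-51824280, 8 regions), had 3.70 ± 0.947. The cluster called Dad1 (chr14:54164536-54239534, 19 regions) had 5.01 ± 0.830. Its midpoint lay 51879 bp from the TSS of Dad1, an oligosaccharyltransferase subunit gene beside the T-cell receptor alpha locus. Clusters are called by protein-coding genes only, and how far this span reaches into that locus was not examined. The values of Pabpc1, Satb1 and Dad1 lie within 2 percentile points of one another.

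A gene was counted as lying at a cluster when its body overlapped the cluster's span or when it had the TSS nearest to the span's midpoint, which held for 724 of 21755 protein-coding genes (3.33%). Of the 15 genes of the Th17 list, 7 lay at clusters (46.7%), among them Il17a, Il17f, Il21 and Rora. The other 8, among them Il23r, Stat3, Batf and Maf, lay at none. The Il17a and Il17f genes, which encode the signature cytokines, share a cluster of 14 regions (chr1:20714012-20802530). Its strongest region, 16540 bp from the Il17a TSS, had signals of 15.9, 17.3, 15.1 and 16.2. The region between it and the gene, 5433 bp from the Il17a TSS, had 12.1, 12.8, 11.7 and 11.8, and one between the 2 genes, 19522 bp from the Il17f TSS, had 12.9, 13.1, 12.3 and 12.6. A region 4363 bp from the Il17a TSS was the weakest, with 1.52, 1.65, 1.68 and 1.62. Strong and weak regions were interspersed, and in each of the 14 the 4 replicates kept within 3 units of signal.

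Rora, the gene of the nuclear receptor RORα, had 16 regions (chr9:69017802-69126058) with sums of 136.4, 144.2, 129.4 and 134.2, and a median signal percentile of 68.0 ± 1.83. Ahr, the aryl hydrocarbon receptor gene, is the nearest gene to both a cluster of 8 regions at chr12:35545800-35589092 (63 ± 3.27 in summed signal) and one of 13 at chr12:35619672-35699526 (99 ± 1.71), neither of which overlaps its body. Their median signal percentiles were 53.3 ± 4.49 and 59.5 ± 2.59.

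**Figure D3:**
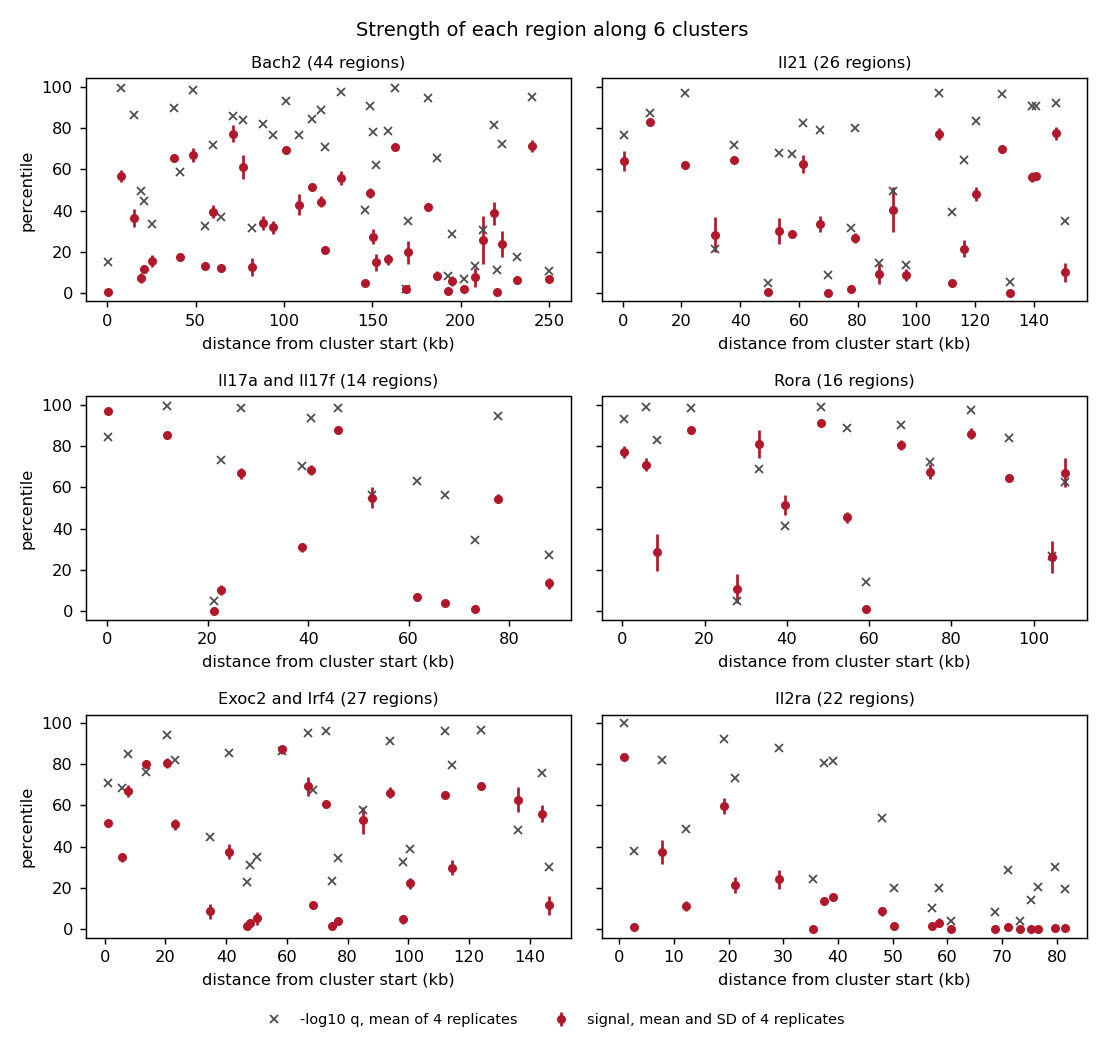
Strength of each region along the clusters at Bach2, Il21, Il17a and Il17f, Rora, Exoc2 and Irf4, and Il2ra, against its distance in kb from the start of the cluster. Red points are the mean and SD over 4 replicates of the signal percentile and crosses the mean percentile of -log10 q; 14 of the 22 Il2ra regions lie below the 10th percentile by signal.

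The share of T-cell genes at clusters was well above that of all genes (3.33%). Of 140 genes on 9 T-cell lists 59 were counted (42.1%), and of 64 matched genes on 5 lists of other cell types 1 was (1.56%). The share rises with gene length and was 6.8% of all genes over 50 kb and 2.29% of shorter ones. On the T-cell lists it was 28 of 41 longer genes (68.3%) and 31 of 99 shorter ones (31.3%). The lists were chosen with results of these cells known, so the counts describe them and no test is given.

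Genes of naive or memory T cells had the highest share, with 9 of 13 at clusters. Besides Bach2 these were the chemokine receptor gene Ccr7 (18 regions), Tcf7 (20), which encodes TCF-1, its relative Lef1 (17), Il7r (13), Foxo1 (11), Satb1, Foxp1 (clusters of 24, 9 and 8) and Id3. The last encodes an inhibitor of E proteins, and its cluster of 20 is called E2f2. Among the genes of this list not at a cluster were Klf2 and S1pr1. For T-cell identity and receptor the count was 11 of 20, led by Ikzf1 (25), Bcl11b (23), Ets1 (19 in the largest of 3) and the receptor chain gene Cd247 (18). The CD3 genes Cd3d, Cd3e and Cd3g lay at none.

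Genes of cytokine input had 12 of 19 at clusters, led by Socs1 (24), the interleukin 6 receptor gene Il6ra (18), the TGF-beta signal transducer gene Smad3 (15), and Jak1 and Stat5b (13 each), which encode a kinase and a transcription factor of cytokine signalling. Activation and costimulation had 9 of 19, led by Myc (18 and 10 in 2 clusters), Nfatc2 (17), and Nfkb1 and Nr4a1 (13 each, the second called Acvr1b). Migration and adhesion had 7 of 18, led by Itgb1, whose cluster of 18 is that of its neighbour Nrp1, by Cd6 (17), Arhgef3 (14 and 11) and S1pr4 (12).

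The lists of the other helper programmes had fewer. Regulatory T cells had 5 of 15: Il2ra (22), Nrp1 (18), Ctla4 (10), Itgae and Il10 (9 each), without Foxp3, their master regulator. Follicular helper cells had 3 of 13, Il6ra, Il6st and Icos (10), the first 2 of them also on the cytokine input list. Th1 had 3 of 14: Tnf, in a cluster of 12 called Nfkbil1, Tbx21 (10, called Tbkbp1), the Th1 master regulator, and Ifng (9). Th2 had 2 of 15, Ccr4 (16, called Glb1) and Il4ra (12, shared with Il21r), without Gata3. AP-1 factors had 3 of 14, with Bach2, Jun (11) and Batf3 (8), and without Batf. Differences between lists were not tested. With stitching at 5 kb 6 of the 140 T-cell genes were at a cluster, against 0.097% of all genes, and at 25 kb 106 were, against 14.8%.

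Genes of other cell types were seldom at clusters, but their share, 1 of 64 matched genes (1.56%), is near the 3.33% of all genes. Lists this short cannot show a share below that of all genes. None of 12 B cell, 12 myeloid, 15 neuron and 13 hepatocyte genes lay at a cluster; of the neuron genes 11 are over 50 kb long. Mef2c, with 8 regions, was 1 of 12 muscle genes and is also expressed in lymphoid cells, and Gzmb, with 9, was 1 of 12 genes of CD8 or NK cells. Housekeeping genes, which are expressed in T cells too, had 3 of 15 at clusters, among them Actb (10 regions) and Ywhaz (8). That share, 20%, is above the 3.33% of all genes and near those of the Th1 list (21.4%), the follicular helper list (23.1%) and the AP-1 list (21.4%).

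**Figure D4:**
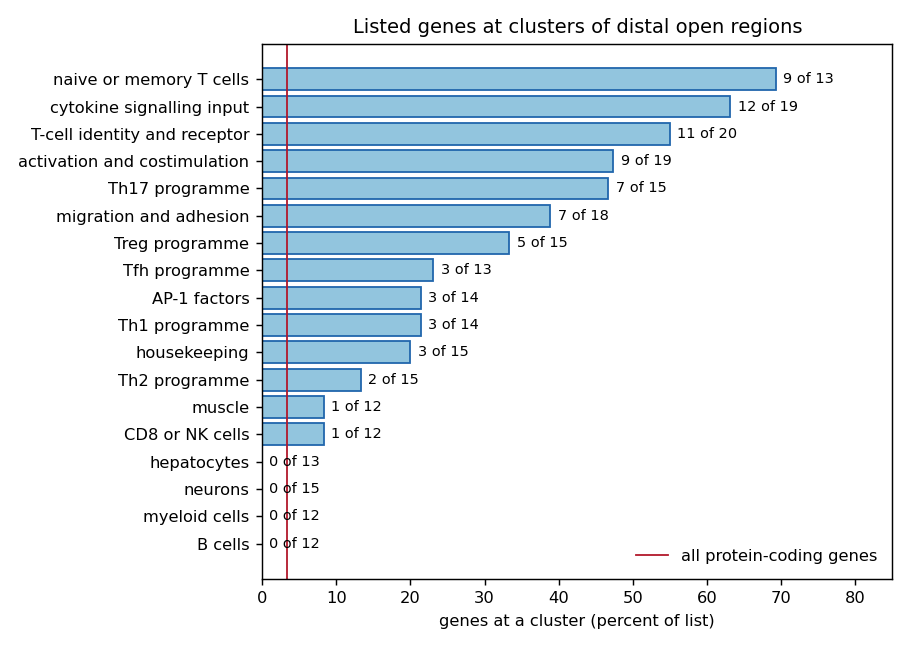
Share of each gene list at a cluster of distal open regions, in percent, with counts beside the bars. The line marks all protein-coding genes (3.33%); T-cell lists lie between 13.3% and 69.2%, housekeeping genes at 20%, and those of B cells, myeloid cells, neurons and hepatocytes at 0.

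Promoters of genes at clusters were mostly open as well. A shared region overlapped the window within 1 kb of a TSS for 665 of the 724 genes at clusters (91.9%). The same held for 64.0% of the other genes and 64.9% of all genes. Regions of the clusters themselves were counted where they reached into this window. Genes at clusters are also longer, with a median of 46.4 kb against 17.4 kb for all genes. The difference may thus be partly fixed by how these genes were picked, and no test is given. Of the spans, 341 contained a protein-coding TSS, 183 lay wholly within 1 gene, 109 overlapped no gene, and the midpoints of 44 lay over 100 kb from any TSS. Trib1, a pseudokinase gene of only 8.75 kb, was counted at 5 clusters with 48 regions in all, the most of any gene. Rbpj, the Notch effector gene, Maml2, a Notch coactivator gene, Foxp1, Ets1, Tmem189 and Nsmce2 had 3 each; so did Gm20388, a gene model of 4435 kb.

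Member regions were more often intronic and farther from genes' starts. Introns held 55.0% of member regions and 49.2% of the others, exons 3.00% and 4.88%, and intergenic sequence 42.0% and 45.9%. The median distance to the nearest protein-coding TSS was 19.1 kb in member regions and 15.8 kb in the others. The excess lay between 10 and 50 kb, with 50.1% and 42.0%, whereas over 100 kb the shares were 7.80% and 10.7%. These are counts of merged regions, which are not replicates, and are given without a test. Per 10 Mb, chromosomes 11 and 15 had the most clusters, with 4.18 and 4.04, and the X chromosome the fewest with 0.35. The X chromosome also had few shared distal regions to stitch, 1006 against 3852 on chromosome 11 and 2492 on chromosome 15. Members held 5.96% of those on the X chromosome, 15.0% on chromosome 11 and 17.3% on chromosome 15.

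The summits of member regions had fewer CTCF strings than those of the other shared distal regions. CTCF is the insulator protein that anchors chromatin loops. Its string lay within 50 bp of 3.49%, 3.73%, 3.76% and 3.73% of member summits in replicates 1 to 4, and of 6.26%, 6.27%, 6.35% and 6.39% of the others. The ratio was 0.582 ± 0.017 (SD, n = 4), with no overlap. Relative to flanks centred 200 bp away, the share was 5.77 ± 0.234 times as high in member regions and 8.49 ± 0.244 times in the others.

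AP-1 strings, bound by BATF, JUN and FOS dimers, were also less frequent in clusters. The share was 24.0%, 24.3%, 23.7% and 24.1% at member summits and 25.9%, 26.3%, 26.3% and 26.2% at the others, a ratio of 0.918 ± 0.012. Read backwards, as a background, the AP-1 string was at 5.04% of member summits and 5.49% of the others, also a ratio of 0.918. In flanks centred 200 bp away the AP-1 string was at 3.66% and 3.67%. What the lower share at member summits reflects was not tested. The composite string of AP-1 and IRF, which contains the AP-1 string, was at 0.576% ± 0.058 of member summits and 0.820% ± 0.023 of the others. When member and other regions were compared within 4 equal strata of signal, the AP-1 difference was -0.36 ± 0.307 percentage points, against -2.14 ± 0.318 over all regions, while that of CTCF was -2.75 ± 0.067, against -2.64 ± 0.096. The NFY string was lower in all 4 replicates by a small margin, 10.4% ± 0.224 and 10.6% ± 0.077 in member regions and the others.

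Of 20 strings, 5 were higher in member regions in all 4 replicates, 4 were lower in all and 11 were mixed; for none of these first 9 did the values of member and other regions overlap. The 5 were STAT (4.22% ± 0.107 in member regions and 3.83% ± 0.142 in the others), E protein (6.86% ± 0.085 and 6.38% ± 0.043), ETS (6.16% ± 0.236 and 5.78% ± 0.091), KLF/SP (3.74% ± 0.032 and 3.51% ± 0.035) and ROR (1.58% ± 0.029 and 1.47% ± 0.045). The shares of RUNX were 6.01% ± 0.100 and 6.01% ± 0.004, and those of NF-kB 0.446% ± 0.062 and 0.431% ± 0.009. In flanks centred 200 bp away, E protein was also more frequent in member regions (5.54% and 5.22%), as was KLF/SP (2.34% and 2.13%). The ratio of summit to flank was 1.602 and 1.645 for KLF/SP and 1.239 and 1.222 for E protein. Their higher shares were thus not limited to the summits. The STAT string was at 3.343% and 3.304% of flanks, and ETS and ROR were less frequent in member flanks. Over the 20 strings the smallest adjusted p of the exact permutation test was 0.278, by the Benjamini-Hochberg method, so none passed 0.05. Within 4 equal strata of GC content the KLF/SP difference turned to -0.039 percentage points. In a window of 25 bp only STAT and MAF were higher in all 4 replicates, and in one of 100 bp 11 strings were. CTCF, AP-1 and the composite stayed lower in all 4 replicates in these windows and strata. The CTCF difference was only -0.09 ± 0.031 percentage points within 25 bp of the summit.

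**Figure D5:**
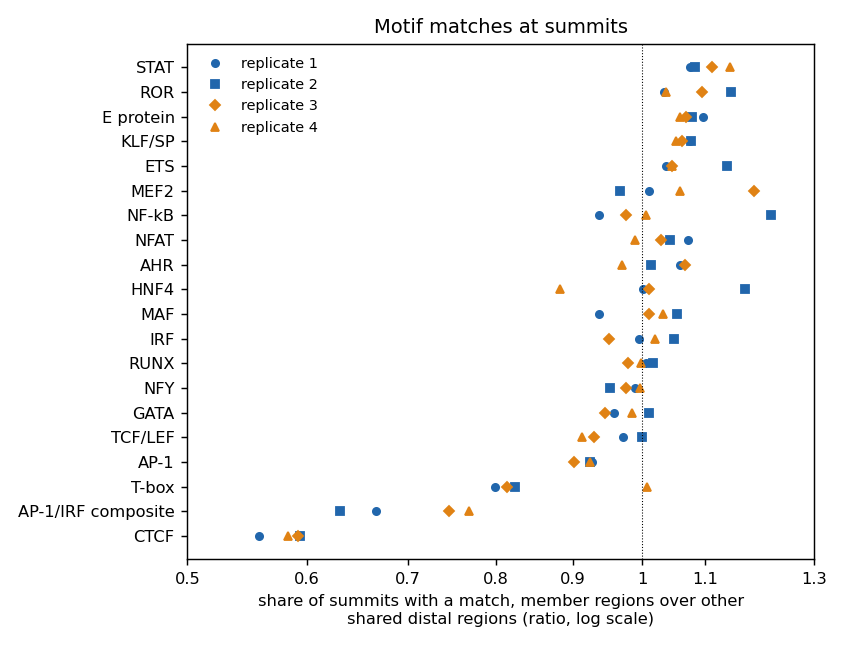
Share of summits with a match within 50 bp in member regions, divided by that in the other shared distal regions (log scale), for 20 strings. Each point is 1 replicate, blue for library tag KS134 and orange for KS136; CTCF lies near 0.58 and STAT, ROR, E protein, KLF/SP and ETS lie above 1 in all 4.

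The peak names of replicates 1 and 2 carry the tag KS134 and those of replicates 3 and 4 the tag KS136. The ranks of summed signal did not overlap between the tags in 252 of 586 members (43.0%), against 42.8% of 10973 other stitched clusters of 2 to 7 regions, so the share was at the background. Each replicate's sums were then divided by its median region signal over these clusters. The median absolute log2 difference between tags was 0.03 in members and 0.06 in the others. Members sum over more regions than the others, and the part of this in the smaller difference was not tested. Among members the largest was that of the Gramd1b cluster, a sterol transporter gene, with -0.24 (KS136 minus KS134) from sums of 49.0 and 53.7 in replicates 3 and 4 against 64.1 and 63.4 in replicates 1 and 2; among the other clusters the largest absolute difference was 0.84. The largest positive difference among members was 0.16, in Maml2 cluster 1.

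Inside the spans lay 1095 distal regions found in only 1 to 3 replicates. They numbered 30.5 per Mb within the spans and 11.0 per Mb elsewhere, given as a description because sharing is part of the rule. The spans also hold 331 shared regions at promoters, which the rule leaves out.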

How the data were processed

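Open chromatin was measured by ATAC-seq in 4 replicates of mouse Th17 cells, and each replicate has 1 deposited peak list on mm10, derived from its alignments, per the file headers. For aligner and peak caller, names and versions were not given in the sources used here. The lists hold 83991, 85202, 85375 and 84222 rows. Each row of the deposited lists gives a summit offset, a signal value that is a ratio over background (fold enrichment), and -log10 p and -log10 q values. The deposited display score was not used. The lists hold no counts, so depth is unknown and precision is the spread between replicates.

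Rows were merged (overlap of at least 1 bp) and stitched by the rule given above. Where a replicate had several rows in a region, the one with the strongest signal stood for it. Percentiles were taken among the 53266 shared distal regions of each replicate. Genes and TSS came from GENCODE M21 (21755 protein-coding genes on chromosomes 1 to 19 and X) and sequence from the RefSeq GRCm38.p6 assembly. Of the listed genes all but Tf of the hepatocyte list matched by symbol. Strings were searched on both strands within 50 bp of each replicate's own summit; printed sequences and counts per cluster use the median summit of the 4 replicates. Differences over replicates were tested by exact two-sided sign-flip permutation, with Benjamini-Hochberg adjustment over the 20 strings. A cluster is called by the protein-coding gene with the largest overlap with its span, however small. Where no gene overlaps, the one with the nearest TSS gives the name.

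Named clusters are the 10 with the most regions, the 10 with the highest summed signal, the 5 with the highest and the 5 with the lowest median signal percentile, those at Th17 list genes, and up to 4 with the most regions for each other list, together with further list members; a few genes that this rule names are not reported here. The members, gene lists and strings were chosen with earlier results of these data known. The scripts were tested on simulated data. Alternatives covered stitching distance, presence, peak strength, TSS definition, minimum size, motif window, strata of signal and GC content, gene assignment and leaving out each replicate. The -log10 q percentile was added after seeing the data. Python 3.11.15, numpy 2.4.6, pandas 2.3.3, scipy 1.17.1 and pysam 0.24.0 were used.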

Additional observations from a re-analysis of the deposited data

Results flagged for a closer look

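In 4 of 57 quantities checked, 1 replicate stood far from the other 3 relative to the range of the 4. Chance brings this about in roughly 1 of 20 sets of 4 values without ties. The share of member summits with the CTCF string was 3.489% in replicate 1 and 3.726% to 3.757% in the others. With the NFY string it was 10.04% in replicate 2 and 10.45% to 10.53% in the others. With the KLF/SP string replicate 1 had 3.789% and the others 3.726% each. With the MEF2 string replicate 3 had 0.06315% and the others 0.04736% each. For KLF/SP and MEF2 the other 3 values are equal, so a difference of any size would be flagged. Outside the chromosomes used, a mean of 103 rows per replicate (99 to 105) lay on the Y chromosome, unplaced sequences and the mitochondrial genome; the series has no control samples.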

How the results depend on the processing

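The number of clusters and of their regions followed the settings, from 586 clusters with 6334 regions. It was 18 with 157 for stitching at 5 kb, 1576 with 21147 at 25 kb, 1142 with 13045 for presence in at least 2 replicates, 313 with 3216 for a -log10 q of at least 10, 32 with 284 for the strongest 50000 rows, 313 with 3144 for summits within 100 bp of one another's median, 1287 with 10797 for a minimum of 6 regions and 159 with 2451 for a minimum of 12. Presence in 3 replicates (835 clusters), a TSS distance of 2.5 kb (449) and TSS of all genes (514) moved it by less than 1.5 times. Leaving out 1 replicate gave 642 to 649 clusters.

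The signal percentile difference stayed negative under all 15 alternatives, between -39.1 (stitching at 5 kb) and -3.95 (strongest 50000 rows), and between -12.1 and -11.2 without 1 replicate. That of -log10 q stayed positive, up to 10.8, except for -6.81 with stitching at 5 kb, where the cause was not tested. T-cell list genes at clusters numbered 6 with stitching at 5 kb, 106 at 25 kb and 50 to 72 under the other alternatives, against 59. Strings higher in all replicates numbered 2 in a window of 25 bp and 11 in one of 100 bp, against 5, and 5 to 8 without 1 replicate. Strings lower in all numbered 7 in a window of 25 bp, against 4. The KLF/SP difference reversed within strata of GC content (-0.039 percentage points).

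No paired analysis was possible because the series has 1 group, so no 2 groups share replicate numbers. The lists hold no read counts, so weak regions near a list's lower limit cannot be weighed by depth, and the exact sign-flip test used here cannot pass 0.05 with 4 replicates. All 4 replicates carry 1 donor identifier.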
